A study of Homo sapiens with 5 samples.

Results

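The YAP and TEAD pathway genes examined here are YAP1, WWTR1, TEAD1, TEAD4, CCN1, CCN2, ANKRD1, AMOTL2, LATS2 and AJUBA, 10 of the 20037 protein-coding genes in the RefSeq table. They were chosen by name, and all 10 were found in it. For each gene, peaks were taken from the gene body or within 1 kb of either gene end, and distal peaks from beyond 1 kb to 100 kb. The peaks come from chromatin immunoprecipitation followed by sequencing (ChIP-seq) in MIA PaCa-2, a widely used line of human pancreatic carcinoma cells. There were 5 groups, with 1 library each. MYC was mapped in MIA PaCa-2 cells in which doxycycline switches on (Tet-On) a short hairpin RNA against MED30 (shMED30), after 3 days of doxycycline, at 0.5 mg/ml as the labels write it, and in the same line without doxycycline. MYC, MED30 and MED17 were each mapped in cells in normal culture whose labels name no hairpin, called parental here. MED30 and MED17 are subunits of Mediator, a large complex through which DNA-bound transcription factors reach RNA polymerase II, and MYC is a transcription factor that pairs with MAX. Whether the hairpin line is 1 clone is not given in the sources used here, and the level of MED30 itself was not analysed here.

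YAP (encoded by YAP1) and TAZ (encoded by WWTR1) are coactivators without a DNA-binding domain of their own. They act on genes through TEAD transcription factors, which recognise the sequence GGAATG. The Hippo kinases LATS1 and LATS2 phosphorylate YAP and TAZ and keep them out of the nucleus. CCN1, CCN2 and ANKRD1 are standard readouts of nuclear YAP and TAZ, and AMOTL2 and LATS2 are targets that feed back on the pathway.

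The promoters of 5 starts are shown because they carry the contrast among these genes: YAP1, AMOTL2 and the inner start of WWTR1 had peaks of MYC, MED30 and MED17, while CCN2 and ANKRD1 had no peak of any list at the gene. Each line holds the 250 bases before an annotated start (RefSeq, GRCh38.p14), read 5′ to 3′ along the gene, and capitals mark matches on either strand to GGAATG (TEAD), TGANTCA (AP-1) or CACGTG (the E-box that MYC and MAX bind).
YAP1, chr11:102110197-102110446, plus strand: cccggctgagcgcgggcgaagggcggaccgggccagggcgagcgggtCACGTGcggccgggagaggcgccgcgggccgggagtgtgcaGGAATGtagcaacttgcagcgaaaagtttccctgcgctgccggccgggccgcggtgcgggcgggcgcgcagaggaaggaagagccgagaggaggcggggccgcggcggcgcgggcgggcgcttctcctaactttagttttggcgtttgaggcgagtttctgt
AMOTL2, chr3:134374448-134374697, minus strand: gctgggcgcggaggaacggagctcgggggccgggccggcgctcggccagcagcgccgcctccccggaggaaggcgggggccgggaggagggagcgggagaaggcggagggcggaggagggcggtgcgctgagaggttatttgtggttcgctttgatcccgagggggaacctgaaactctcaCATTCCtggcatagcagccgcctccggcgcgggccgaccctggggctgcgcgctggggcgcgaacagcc
WWTR1, chr3:149658026-149658275, minus strand: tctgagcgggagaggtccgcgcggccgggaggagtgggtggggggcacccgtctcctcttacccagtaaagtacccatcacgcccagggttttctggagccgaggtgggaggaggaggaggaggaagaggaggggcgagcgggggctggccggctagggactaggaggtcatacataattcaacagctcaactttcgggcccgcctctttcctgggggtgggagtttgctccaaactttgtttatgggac
CCN2, chr6:131951373-131951622, minus strand: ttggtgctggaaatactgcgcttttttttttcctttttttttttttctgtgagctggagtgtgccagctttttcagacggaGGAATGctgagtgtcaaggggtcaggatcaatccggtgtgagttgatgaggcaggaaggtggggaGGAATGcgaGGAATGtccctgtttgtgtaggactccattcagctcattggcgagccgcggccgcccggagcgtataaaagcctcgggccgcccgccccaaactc
ANKRD1, chr10:90921088-90921337, minus strand: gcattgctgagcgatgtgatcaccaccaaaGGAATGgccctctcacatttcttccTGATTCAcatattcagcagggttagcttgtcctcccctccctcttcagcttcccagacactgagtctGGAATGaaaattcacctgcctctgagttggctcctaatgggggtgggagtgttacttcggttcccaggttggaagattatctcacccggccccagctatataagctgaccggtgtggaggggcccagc

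CCN2 had 3 TEAD matches, with first letters 169, 104 and 95 bases upstream of its start. ANKRD1 had 2, at 220 and 128 bases, and an AP-1 match at 195 bases. YAP1 had a TEAD match at 162 bases and an E-box at 203 bases, and AMOTL2 a TEAD match at 69 bases. The WWTR1 window held none of these letters, and neither did the windows of LATS2 and of the outer starts of WWTR1, AMOTL2 and AJUBA. The window of the inner AJUBA start, where no list had a peak, held a TEAD match at 59 bases. At least 1 TEAD match was found in 10.5% of the 22199 promoter windows of protein-coding genes, an AP-1 match in 5.36% and an E-box in 7.37%. The promoter table matched 7 of the 10 genes, and TEAD1, TEAD4 and CCN1 had no entry. A match describes letters only, and the windows with the most TEAD matches belonged to genes without a peak.

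The lists held 4621 MYC peaks with doxycycline, 7158 without it and 14331 in parental cells, and 12040 MED30 and 13172 MED17 peaks. Read totals are not part of the lists. The lowest local background recovered from each list, which scales with depth, was 0.186 fragments for MYC with doxycycline, 0.310 without it, 2.56 for parental MYC, 1.65 for MED30 and 1.60 for MED17. By this measure the hairpin library with doxycycline had 0.0725 times the depth of the parental MYC library, and the one without it 0.121 times. The MED30 library had 0.644 times that depth and the MED17 library 0.625 times. For the Mediator subunits, 2 mM disuccinimidyl glutarate for 20 min preceded 1% formaldehyde for 10 min, and for MYC formaldehyde was used alone, so MYC and Mediator lists differ in fixation. Of the epithelial markers, KRT8 and KRT18 had peaks of parental MYC, MED30 and MED17 and KRT19 of MED30 and MED17, whereas EPCAM and CDH1 had no peak at the gene. Of the mesenchymal markers, VIM had all 3 proteins, ZEB1 had MED30 and MED17, and CDH2 had none. The 4 acinar and 3 immune markers had no peak at the gene in any list.

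**Figure D1:**
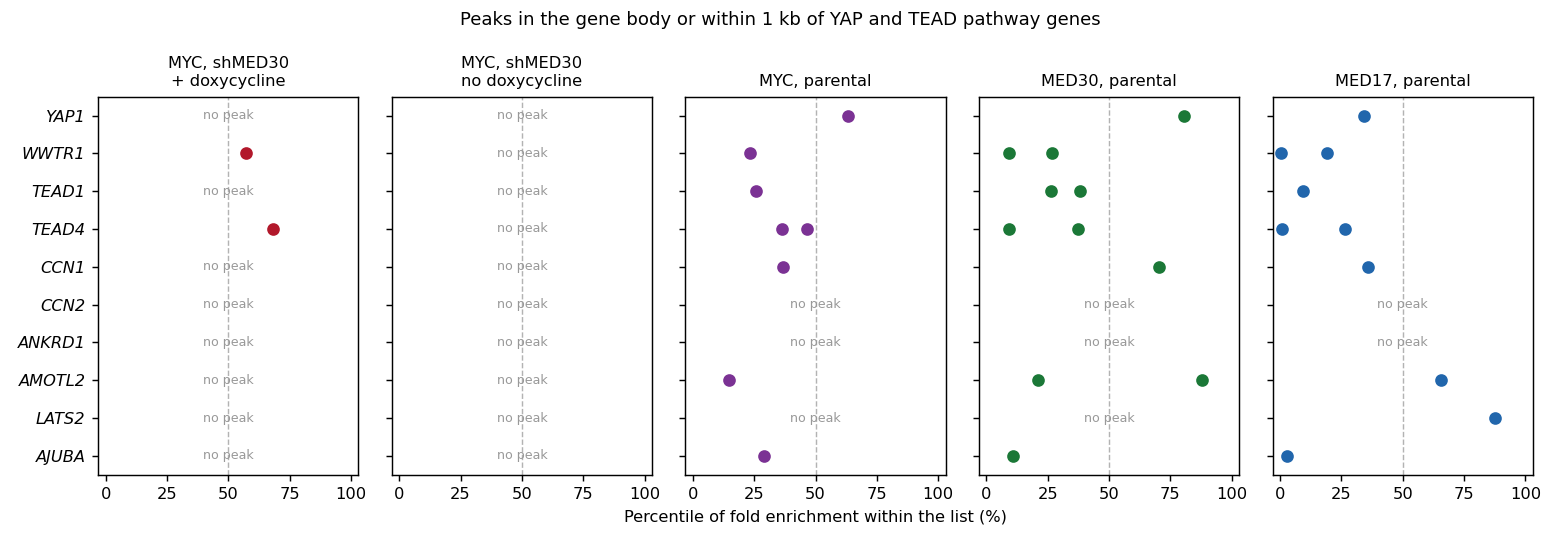
Peaks in the gene body or within 1 kb of the 10 genes, by list. Each point is a peak, placed on the horizontal axis at the percentile of its fold enrichment within its list, and the dashed line marks 50%. Parental MYC peaks lie left of the line at every bound gene but YAP1, and CCN2 and ANKRD1 have no peak in any list.

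In parental cells, 7 of the 10 genes had peaks of MYC, MED30 and MED17 at the gene: YAP1, WWTR1, TEAD1, TEAD4, CCN1, AMOTL2 and AJUBA. LATS2 had a MED17 peak alone, and CCN2 and ANKRD1 had none of the 3. MYC was thus listed at 7 of 10 genes (70%, exact Clopper-Pearson 95% interval 34.8 to 93.3%), against 44.2% of all protein-coding genes. MED30 was listed at 7, against 46.4% of all genes, and MED17 at 8 (80%, 44.4 to 97.5%), against 52.8%. Peaks of both subunits were found at 43.5% of all genes and peaks of all 3 proteins at 35.5%. With 10 genes, the intervals for MYC, MED30 and MED17 include the share over all genes. These intervals cover counting error only and treat genes as independent.

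Bound members were found among long and short genes. The 5 genes of 80 kb or more (YAP1, WWTR1, TEAD1, TEAD4 and LATS2) had 4 with MYC, 4 with MED30 and 5 with MED17. Among all genes of that length, 47.0% had a parental MYC peak, 47.7% a MED30 peak and 55.2% a MED17 peak. The 5 genes of 21 kb or less (CCN1, CCN2, ANKRD1, AMOTL2 and AJUBA) had 3 with each protein. Among all genes that short, the shares were 36.7% for MYC, 39.4% for MED30 and 44.1% for MED17.

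The coactivator gene YAP1 (chr11:102110447-102233424) had 1 site at its start, spanning 102110002 to 102112041. The MYC peak there had a fold enrichment of 4.99, the MED30 peak 6.12 and the MED17 peak 4.48, where fold is the authors' ratio of fragments piled up at a summit to those in its surroundings. Folds from libraries of different depth are not comparable, so each peak was placed by its percentile within its own list, which was 63.1 for MYC, 80.3 for MED30 and 34.3 for MED17. This was the highest percentile of a parental MYC peak at any of the 10 genes. The summit pileup was 28 fragments for MYC (exact Poisson 95% interval 18.6 to 40.5), 46 for MED30 (33.7 to 61.4) and 36 for MED17 (25.2 to 49.8). The MYC summit lay 241 bp upstream of the start, the MED30 summit 11 bp downstream and the MED17 summit 705 bp downstream. The site also overlaps YAP1-DT, a divergent noncoding gene, and the lists cannot tell the genes apart.

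WWTR1 (chr3:149517235-149724788), which encodes TAZ, was bound at the inner of its 2 starts in the promoter table and not at the outer one. The promoter table gives starts at 149703273 and 149658025, and a site of all 3 proteins spanned 149656562 to 149658584 at the inner of these. Its folds were 3.68 for MYC (percentile 23.1), 3.52 for MED30 (9.15) and 3.98 for MED17 (19.3). No list had a peak in the 250 bases before the outer start. The upper gene end, at 149724788, has no entry in the promoter table, and no list had a peak within 1 kb of it. The hairpin line with doxycycline also had a MYC peak at the inner start, described further on. WWTR1-AS1, an antisense noncoding gene, overlaps the same site. A second site inside the gene, from 149576074 to 149576903, had MED30 (4.12) and a MED17 peak among the weakest of its list (2.54, percentile 0.425).

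The TEAD genes, which encode the DNA-binding partners of YAP and TAZ, carried all 3 proteins at their lower ends. At TEAD1 (chr11:12674421-12944737) the folds were 3.76 for MYC (percentile 25.7), 4.46 for MED30 (38.3) and 3.56 for MED17 (9.27). A further MED30 peak (4.11) lay inside the gene at 12693731 to 12694268, where neither MYC nor MED17 was listed. TEAD4 (chr12:2959397-3040676) had 2 adjacent sites of all 3 proteins, at 2958394 to 2959166 and at 2959410 to 2960358. Folds at the first were 4.06 for MYC, 4.44 for MED30 and 2.79 for MED17, and at the second 4.36, 3.52 and 4.23 in the same order. The stronger peak of MED30 was therefore in the first site and those of MYC and MED17 in the second. The noncoding gene LOC124902859 overlaps both sites.

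The target genes differed most among themselves. CCN1 (chr1:85580761-85583950), which encodes the matricellular protein CYR61, had folds of 4.07 for MYC (percentile 36.6), 5.59 for MED30 (70.5) and 4.53 for MED17 (35.8) at its lower end. Their pileups were 23 fragments for MYC (14.6 to 34.5), 35 for MED30 (24.4 to 48.7) and 31 for MED17 (21.1 to 44.0). CCN2 (chr6:131948176-131951372), which encodes the related protein CTGF, had no peak in any of the 5 lists within 100 kb, a state shared by 15.3% of all protein-coding genes. ANKRD1 (chr10:90912096-90921087), which encodes a nuclear ankyrin repeat protein of muscle, had no peak of any list in the gene or within 1 kb, as did 41.1% of all genes. Thus 1 of these 3 readout genes had Mediator peaks at the gene and the other two had none. A gene missing from a list may still be bound below the calling threshold.

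The feedback genes AMOTL2 and LATS2 had the highest Mediator percentiles of the 10. At AMOTL2 (chr3:134355345-134375417), whose product binds YAP and holds it in the cytoplasm, the folds were 3.46 for MYC (percentile 14.9), 6.77 for MED30 (88.1) and 5.54 for MED17 (65.8). The site, from 134373919 to 134374974, covers the inner start at 134374447, and no list had a peak in the 250 bases before the outer start at 134375417. A second MED30 peak (3.94) lay at 134364131 to 134364542, inside the gene. At LATS2 (chr13:20973036-21061586) the MED17 peak had a fold of 6.82 (percentile 87.8) and a pileup of 26 fragments (17.0 to 38.1), with its summit 663 bp downstream of the start. MED30 and MYC had no peak at this gene, and the reason was not tested.

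AJUBA (chr14:22971177-22982551), a LIM-domain protein that binds LATS kinases, had weak peaks of all 3 proteins at its outer start. The folds were 3.87 for MYC (percentile 29.2), 3.59 for MED30 (10.8) and 3.10 for MED17 (2.85), and the pileups were 19, 14 and 13 fragments in that order. Its inner start, at 22976842, had no peak in the 250 bases before it.

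Most parental peaks at these genes ranked in the lower 50% of their list by fold. The exceptions were MYC at YAP1, MED30 at YAP1, CCN1 and AMOTL2, and MED17 at AMOTL2 and LATS2. Ranks by summit pileup can differ, since fold also depends on local background. Pileups at the genes ran from 18 to 38 fragments for MYC, 14 to 46 for MED30 and 13 to 38 for MED17. The list medians were 22, 21 and 22 in that order. MYC pileups were above the median at TEAD4 (36 and 38), YAP1 (28), WWTR1 (27) and CCN1 (23). They were below it at AJUBA (19) and TEAD1 (18) and equal to it at AMOTL2 (22). The strongest MYC peak by fold was in the upper 50% of its list at 1 of 7 bound members, against 56.5% of all genes with a MYC peak at the gene. For MED30 this was 3 of 7, against 58.2%, and for MED17 2 of 8, against 57.7%. The median percentile was 29.2 for MYC, 38.3 for MED30 and 30.4 for MED17 at the bound members, and 56.0, 57.5 and 57.0 over all bound genes in the same order. The strongest peak of each protein anywhere at the gene was then compared. MED30 had the higher percentile than MED17 at 7 of the 7 genes with both, by a median of 22.3 points. Over 8710 such genes, 48.9% had the higher percentile for MED30, and the median difference was -0.71 points. LATS2, with MED17 at percentile 87.8 and no MED30 peak, is not among the 7 genes. By the same measure MYC had the higher percentile than MED30 at 2 of 7, TEAD4 and AJUBA, and at 49.4% of 7382 genes with both. The strongest peaks can be at different sites, and site by site the order differed: at the inner start of WWTR1 MED30 (9.15) was below both MYC (23.1) and MED17 (19.3), and at the second TEAD4 site MED30 (9.25) was below both MYC (46.3) and MED17 (26.5).

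**Figure D2:**
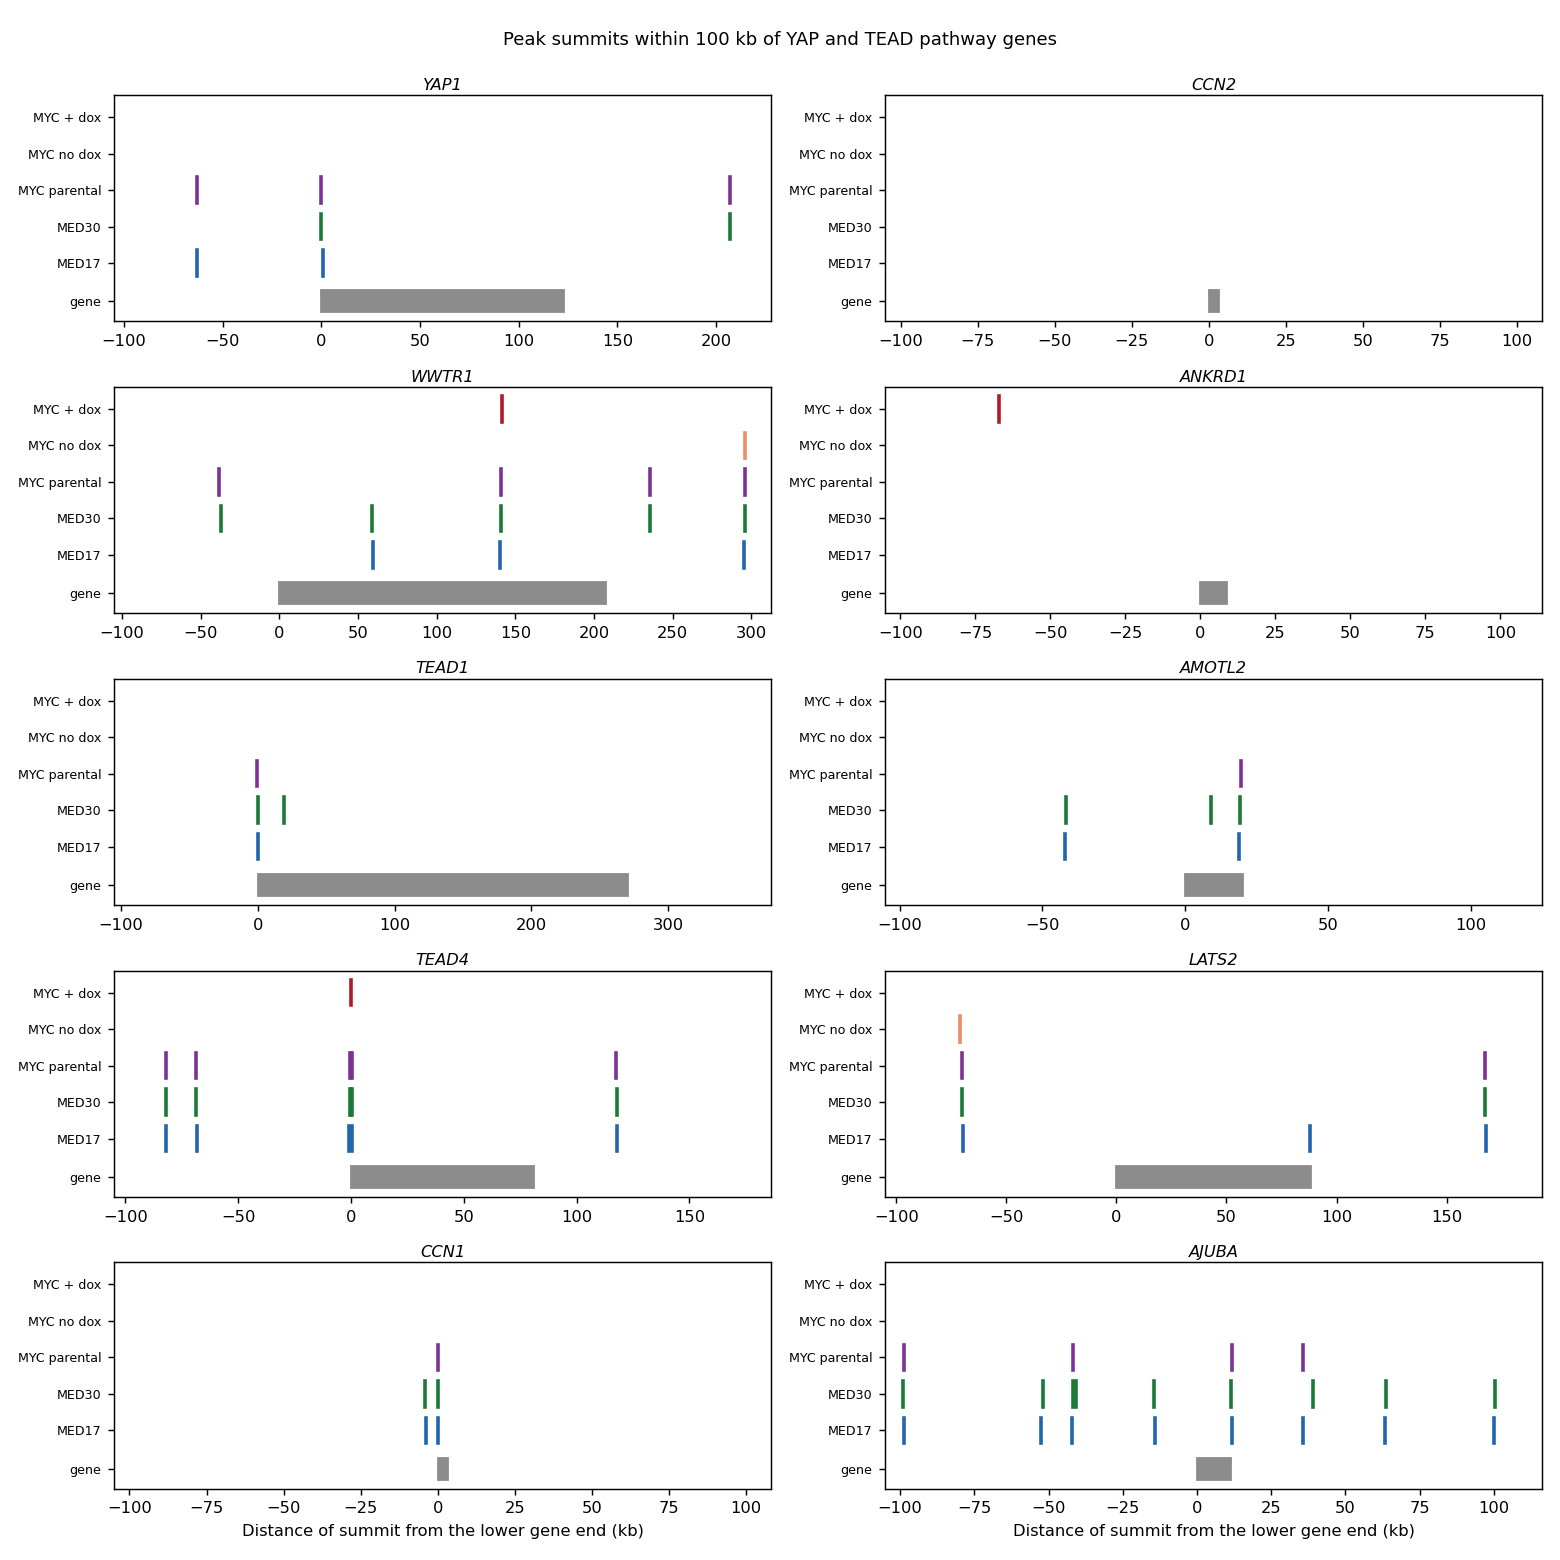
Peak summits within 100 kb of each gene, by list. The horizontal axis is the distance in kb from the gene end with the lower coordinate, the grey bar is the gene, and each coloured tick is the summit of a peak in the named list. CCN2 has no tick, ANKRD1 has 1, of MYC with doxycycline, on the lower side, and the ticks around AJUBA are the most numerous.

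Of the MYC-bound genes, 4 had a start in the promoter table: YAP1, WWTR1, AMOTL2 and AJUBA. MYC summits lay upstream of that start at all 4, by 241, 297, 429 and 316 bp. The median MYC position over 6573 genes with a summit within 1 kb of an annotated start was -5 bp, with 50.9% upstream. MED30 summits were upstream at 3 of 4 such members, against 56.7% of 7018 genes. MED17 summits were downstream at 4 of 5, by 226 to 705 bp, and upstream at AJUBA by 564 bp. Over 8074 genes their median position was 177 bp downstream and 27.3% were upstream. The MYC-bound genes TEAD1, TEAD4 and CCN1 had no entry and are not in these counts. From the lower gene end, their MYC summits lay 240 bp outside TEAD1 and 36 bp inside CCN1. At TEAD4 the stronger MYC summit lay 527 bp inside the gene and the other 516 bp outside.

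Most distal peaks lay at other genes. Merged over the 5 lists, 12 sites were at the 10 genes and 23 were distal, and 7 of those 23 were not within 1 kb of an end of another protein-coding gene. The same share around all protein-coding genes was not computed. Distal peaks of MYC were found for 5 genes, of MED30 for 7 and of MED17 for 7, against 67.0%, 68.2% and 71.0% of all protein-coding genes in the same order. The neighbours they sat at include BIRC3, an inhibitor of apoptosis 83.8 kb past YAP1 (MYC 6.23, MED30 5.99), PRMT5, an arginine methyltransferase 41.7 kb below AJUBA (MYC 7.20, MED30 4.01, MED17 5.85), and PSMB5, a proteasome subunit 52.0 kb past AJUBA (MED30 6.47, MED17 6.99). AJUBA had 10 other protein-coding genes within 100 kb, whereas AMOTL2 had none. AJUBA alone had 8 of the 19 distal MED30 peaks and 7 of the 16 distal MED17 peaks.

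A pair of distal Mediator sites, chosen after their values were seen, lay away from the ends of other protein-coding genes and near a target gene. At AMOTL2 a site 41.6 kb below the gene, within the noncoding gene LINC02004, had MED30 (5.78, percentile 75.0) and MED17 (4.22, percentile 26.4) and no MYC. It was the only distal site for which one of the 10 genes was the nearest protein-coding gene. At CCN1 a site 3.68 kb below the gene had MED30 (4.19) and MED17 (4.54), and it lies inside the neighbouring gene DDAH1. TEAD1 and CCN2 had no distal peak in any list.

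Most MED30 and MED17 peaks at and near these genes overlapped each other. Of 30 MED30 peaks at the gene or within 100 kb, 23 overlapped a MED17 peak (76.7%, 57.7 to 90.1%), against 77.3% of the whole MED30 list. Of 26 MED17 peaks, 23 overlapped MED30 (88.5%, 69.8 to 97.6%), against 71.5% of the whole list. Parental MYC peaks overlapped MED30 at 18 of 21 (85.7%, 63.7 to 97.0%), against 57.4% of the whole list, and MED17 at 17 of 21 (81.0%, 58.1 to 94.6%), against 62.0%. All 8 MYC peaks in the genes or within 1 kb overlapped both subunits. The whole MYC list includes peaks far from genes, and the comparison with its shares does not adjust for that. Of all protein-coding genes, 8847 had a parental MYC peak at the gene, and 7105 had peaks of MYC, MED30 and MED17 there. The overlap share of MYC peaks at all genes is not given. The count of 8 therefore cannot be read as particular to these genes.

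**Figure D3:**
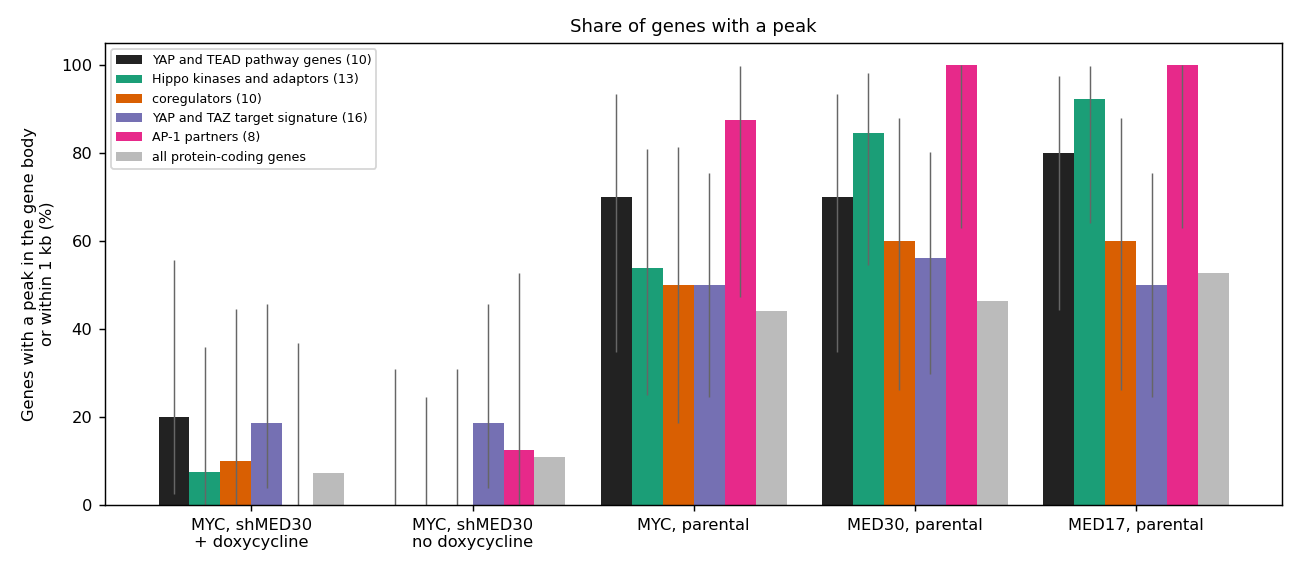
Share of genes with a peak in the gene body or within 1 kb, by list and gene group. Bars give percent of genes, lines are exact Clopper-Pearson 95% intervals, and the grey bar is the share over all protein-coding genes. The black bars of the 10 genes reach 70% for parental MYC, 70% for MED30 and 80% for MED17, and all 8 AP-1 genes have MED30 and MED17.

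Other genes of the pathway are read against the shares over all protein-coding genes, which were 44.2% for parental MYC, 46.4% for MED30 and 52.8% for MED17. Of 13 Hippo kinases and adaptors, 7 had parental MYC, 11 MED30 and 12 MED17, with the highest MED30 folds at the scaffold gene SAV1 (6.90), the kinase gene TAOK1 (6.88) and the LATS activators MOB1A (5.60) and MOB1B (5.36). WWC1 alone had no Mediator peak at the gene. Of 10 coregulators, 5 had MYC, 6 MED30 and 6 MED17, led by the LIM-domain genes LIMD1 (5.89) and WTIP (5.44), then TEAD2 (4.50) and VGLL4 (4.34), a TEAD-binding competitor of YAP. The YAP and TAZ target signature, 16 genes without those already counted, had 8 with MYC, 9 with MED30 and 8 with MED17. Its highest MED30 folds were at GADD45A (7.71), CRIM1 (7.55), CCDC80 (7.21) and the receptor kinase gene AXL (4.90). F3, IGFBP3, FOXF2, TGFB2 and RBMS3 had no Mediator peak at the gene.

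AP-1 factors are known to share enhancers with TEAD. All 8 AP-1 genes had MED30 and MED17, and 7 had parental MYC, the exception being FOS, against 46.4% of all genes with MED30, 52.8% with MED17 and 44.2% with parental MYC. The highest MED30 folds were at JUND (8.60), FOS (8.53), JUN (7.40) and ATF3 (6.48). Their interval for MED30 runs from 63.1 to 100%. It treats the 8 related genes as independent, and the list was chosen with earlier results of these data known.

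The hairpin line was compared with and without doxycycline, which switches on the hairpin against MED30. No library without the hairpin is labelled as given doxycycline, and the 2 libraries differ in depth by recovered background (0.0725 and 0.121 times parental MYC). Effects of doxycycline itself, of the hairpin and of depth therefore cannot be told apart. With doxycycline, TEAD4 and WWTR1 had a MYC peak at the gene, and without it none of the 10 genes had one. These are 2 of 10 genes with doxycycline (20%, 2.52 to 55.6%), against 7.41% of all protein-coding genes, and 0 of 10 without it (upper bound 30.8%), against 11.0%. The TEAD4 peak (2959521 to 2959737) had a fold of 5.29, percentile 68.3, and 8 fragments (3.45 to 15.8). The WWTR1 peak (149658381 to 149658577) had a fold of 4.85, percentile 57.4, and 6 fragments (2.20 to 13.1). Each overlapped a parental MYC peak and a peak of both Mediator subunits. The intervals of the shares overlap between the libraries, and with 1 library per group no test of the difference was possible.

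The hairpin line had 3 distal MYC peaks over its libraries. With doxycycline the only one was 67.1 kb below ANKRD1, inside the serotonin receptor gene HTR7, with a fold of 5.01, 5 fragments and no counterpart in any other list. The share of genes with such a peak was 22.1% overall. Without doxycycline there were 2, at the ends of RNF13 near WWTR1 (5.94) and XPO4 near LATS2 (7.48), against 29.7% of all genes with one. Of these 2 peaks, 0 overlapped a peak with doxycycline (0 to 84.2%), against 28.2% of the whole list, and 2 overlapped a parental MYC peak (15.8 to 100%), against 48.0%. Both intervals include the share of the whole list.

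By recovered background the hairpin libraries were shallower than the parental MYC library, so the parental peaks were scaled by that ratio. Read totals, which would check the ratio, are not part of the lists. Scaled to the depth with doxycycline, the 21 parental MYC peaks at or near the 10 genes would have pileups of 1.09 to 3.26 fragments, and 18 fall under 3, the lowest pileup of any peak in that list. Scaled to the depth without doxycycline they would have 1.81 to 5.44, and 15 fall under the lowest of 4. At YAP1, for example, 28 parental fragments scale to 2.03 with doxycycline and 3.39 without it. A lack of a MYC peak at YAP1, TEAD1, CCN1, AMOTL2 or AJUBA in these libraries does not by itself show less MYC there. Whether MYC was lower at those genes was not tested. With doxycycline, the parental peaks scaled above 3, at RNF13 (3.26), PRMT5 (3.12) and TSPAN9 (3.04), had no overlapping peak in the list. Without it, parental peaks scaled above 4 at PRMT5 (5.20), TSPAN9 (5.08), BIRC3 (4.84) and both TEAD4 sites also had none. The one at RNF13 (5.44) did have an overlapping peak. Each floor is the lowest pileup anywhere in a list and was not adjusted for local background at these sites. A missing peak above the floor therefore does not show less MYC. The peaks that were listed had more fragments than the scaled parental values: with doxycycline 8 against 2.75 at TEAD4 and 6 against 1.96 at WWTR1, and without it 10 against 2.66 at XPO4 and 9 against 5.44 at RNF13. A peak has to reach the lowest listed pileup to be seen, so listed peaks are the high ones by choice. Over the whole parental list, the share found with doxycycline was 5.06% between percentiles 20 and 40 and 39.2% above 80, and without doxycycline 10.3% and 59.6%.

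**Figure D4:**
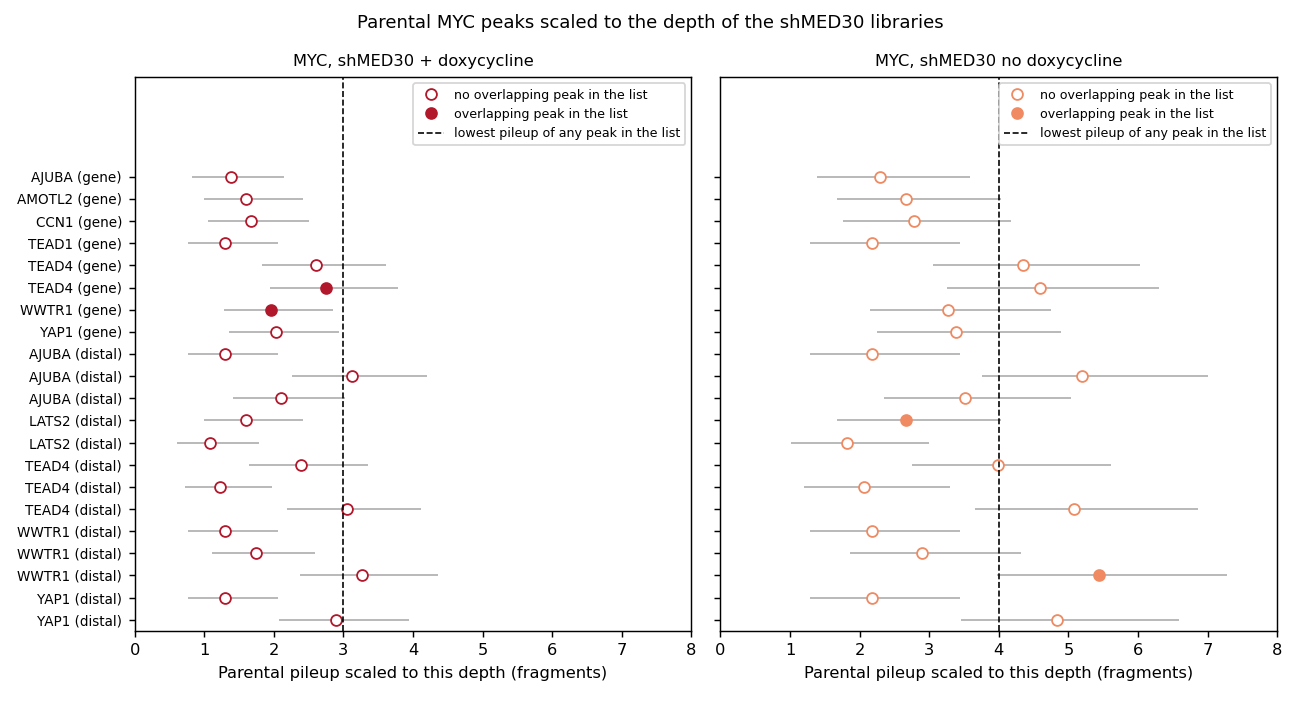
Parental MYC peaks at the 10 genes scaled to the depth of the hairpin libraries. Each row is 1 of 21 parental peaks, points are the parental summit pileup times the ratio of background pileups, lines are scaled exact Poisson 95% intervals, and the dashed line is the lowest pileup of any peak in the hairpin list. With doxycycline 18 of the 21 points lie under that line of 3 fragments, and without it 15 lie under that line of 4.

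Across the other pathway genes, the hairpin line had MYC peaks at 5 of 47 with doxycycline, against 7.41% of all protein-coding genes, and at 4 of 47 without it, against 11.0%. With doxycycline they were at TAOK3 (3.29), VGLL4 (3.23), NT5E (3.23), FJX1 (7.73) and ASAP1 (6.74). Without it they were at FJX1 (6.63), ASAP1 (6.14), ARHGEF17 (4.49) and FOSL1 (7.53), an AP-1 gene. FJX1 and ASAP1 were the 2 genes with a peak in each library.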

How the data were processed

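ChIP-seq peaks were available for 5 libraries of human MIA PaCa-2 cells, 1 per group, as deposited narrowPeak lists of 1 library each. Per the submitters' processing notes, Trim Galore, Bowtie2, deepTools and MACS2 were used with hg38; their versions and settings, and whether an input was used, are not given here. The deposited fold is a ratio of the summit pileup to the local background, the deposited −log10 p and −log10 q give each peak's significance, and the authors' score column restates −log10 q times 10. The highest q was 0.0979 for MYC with doxycycline, 0.0993 without it, 0.0499 for parental MYC, 0.0498 for MED30 and 0.0489 for MED17, so the hairpin lists reach weaker peaks.

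Peaks were assigned to RefSeq genes (GRCh38.p14) with Python 3.11.15, pandas 2.3.3, NumPy 2.4.6 and SciPy 1.17.1. Overlap means at least 1 bp. Pileup and background were recovered from fold, as (pileup + 1)/(background + 1), and a Poisson p, which matched the deposited p to 0.002 on the log10 scale in at least 99.6% of each list. Shares carry exact Clopper-Pearson and pileups exact Poisson 95% intervals, which cover counting error only. Steps were tested on simulated data. Without replicates no test was run between groups, and p-values are not given.

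The members and gene lists were chosen with earlier results of these data known. All 10 members are named, with up to 4 genes of each other list by MED30 fold and every other gene with a MYC peak in the hairpin line. Alternatives varied the window, the threshold, list size and the definition of overlap. Figures were drawn with matplotlib 3.10.9.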

Additional observations from a re-analysis of the deposited data

How the results depend on the processing

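Of 93 values recomputed under alternative settings, 55 stayed within 1.5 times the main count, or within the interval of the main share, and 38 moved. Keeping the upper 50% of each list by fold left peaks at 1 of the 10 genes for parental MYC, 3 for MED30 and 2 for MED17, and at 2 of the 47 other pathway genes for MYC with doxycycline, 13 for parental MYC, 17 for MED30 and 17 for MED17. At that setting 4997 of all 20037 protein-coding genes kept a parental MYC peak at the gene, 5412 a MED30 peak and 6111 a MED17 peak. For MYC with doxycycline the number was 919. Members with a distal MED17 peak then numbered 4, and the overlap shares were 45.5% of MED30 peaks with MED17, 45.5% of MED17 peaks with MED30 and 37.5% of parental MYC peaks with MED30. With the 4621 strongest peaks of each list, the counts were 0 genes for parental MYC, 3 for MED30 and 2 for MED17, then 8, 15 and 13 of the other genes in that order, and 3 members with a distal MED17 peak. The share over all protein-coding genes was not computed for the 4621 strongest peaks. A q at or under 0.01 left 2 other genes for MYC with doxycycline, and counting gene ends only left 1 member for it. Within 50 kb, members with a distal peak numbered 0 for MYC with doxycycline, 0 without it, 3 for parental MYC and 4 for MED17. Counting only peaks whose nearest protein-coding gene is a member left 0, 0 and 0 for these MYC lists, 1 for MED30 and 1 for MED17. The share over all protein-coding genes is not given at the q, gene-end, 50 kb or nearest-gene settings. It is also not given for distal peaks in the upper 50%. These counts therefore cannot be read as particular to the members. Reciprocal overlap of at least 50% gave 50% of MED30 peaks with MED17, 57.7% of MED17 with MED30, 61.9% of parental MYC with MED30 and 38.1% with MED17. Centres within 250 bp gave 50%, 57.7% and, for parental MYC with MED17, 52.4%. Peaks in the gene body and 1 kb alone gave 100% for parental MYC with MED30 and 100% with MED17. The same shares at all protein-coding genes are not given. These settings keep fewer peaks, smaller windows or stricter overlaps, and no other cause was tested. No paired analysis was possible because each group has 1 library. The hairpin libraries had low depth by recovered background, and with 1 library per group the spread between cultures is unknown.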
